A study of Mus musculus with 22 samples.

Results

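Calcium that enters a mitochondrion crosses both of its membranes, and 9 genes for proteins on that route were followed here in single mouse astrocytes. They are the voltage-dependent anion channels *Vdac1*, *Vdac2* and *Vdac3*, the calcium uniporter pore *Mcu* and its gatekeeper *Micu2*, the exchanger-related gene *Letm1*, the adenine nucleotide carriers *Slc25a4* and *Slc25a5*, and the cyclophilin D gene *Ppif*. The genes were chosen by name, as 9 of the 23453 gene symbols in the count table. The symbol itself found 8 of them, and *Micu2* was found under its older symbol *Efha1*. All 9 passed the filter for a read in at least 5 cells, as did 12719 genes in all, which are called the genes tested below.

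The 22 cells came from astrocyte cultures of the cerebral cortex of newborn (P0-P1) C57BL/6 pups, in which shaking and cytosine arabinoside had been used against other cell types, and no genetic change was made in any group. Each cell was loaded with the calcium dye Fluo-4 and exposed briefly to EtOH at the highest of the doses tested in the study. It was then classified by its calcium response and aspirated singly, and its RNA was amplified as antisense RNA in 2 rounds before sequencing. There were 6 S-type cells (a sustained signal with slow rise and decay), 6 T-type cells (a transient signal with sharp rise and decay), 5 M-type cells (a mixed signal) and 5 cells without a response (NR). Every group had thus received EtOH, and NR was the reference without a calcium response, not one without EtOH. The cells were collected at 1 of 2 times after exposure, which the labels do not give per cell, so that collection time and response type cannot be told apart here. The labels do not tie a cell to an animal or a culture. Each type was therefore treated as 1 sample, no test between types was made, and differences are given as ratios with their spread over cells. Cells are numbered within a type in the order of their accessions.

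The outer mitochondrial membrane is made permeable to ions and metabolites by the VDAC porins, which also pass calcium released at contacts with the endoplasmic reticulum. The inner membrane admits calcium through the uniporter, whose pore is formed by *Mcu* and held closed at low calcium by the MICU proteins. In astrocytes this uptake buffers and shapes the calcium signal of the cytosol, while the adenine nucleotide carriers exchange ADP for ATP and, with cyclophilin D, have been linked to the permeability transition that follows calcium overload.

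A cell had between 2937786 and 22131076 reads summed over genes, and the members together took between 0.328% and 1.66% of them. Counts were divided by a size factor per cell, and the result is called the normalized count. T-type cells 1 and 2 stood apart from the other 20 cells by their size factors. Per 1000000 reads these were 0.0457 and 0.0219, against 0.061 to 0.105 in the others. The 10 most read genes held 8.17% and 13.0% of their reads, against 5.15% to 10.1% in the others. By that share T-type cell 2 lay outside the other cells and T-type cell 1 did not. A low factor raises every normalized count of a cell, so the main T-type values of the members are also given without these cells or as a share of reads. Of 15 astrocyte markers, 15 had reads in S-type and NR and 14 in T-type and M-type, with *Ntsr2* as the marker without reads, and their summed level ran from 1411 to 10416 CPM (reads of a gene per 1000000 reads) over cells. Markers of other cells were read too, with summed levels of 0.491 to 271 CPM for microglia, 34.0 to 3329 CPM for the oligodendrocyte lineage, 38.1 to 2076 CPM for neurons and 34.2 to 9437 CPM for mural cells and fibroblasts. The endothelial sum ran from 0 to 200 CPM, and *Sox10*, *Gpr17*, *Cdh5*, *Cldn5* and *Rgs5* had no read in any type. The part of such cells in the values below was not tested.

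All 9 genes were read in these astrocytes, at very different levels. Levels of different genes were compared per length of exon, as TPM (reads per exon base, scaled to a sum of 1000000 in each cell) computed from the counts. *Slc25a4*, the carrier of heart, muscle and brain, had a median of 4663 TPM over the 22 cells, and *Slc25a5*, the more widely expressed carrier, 3292 TPM. The porins followed with 342 TPM for *Vdac2*, 309 TPM for *Vdac1* and 150 TPM for *Vdac3*. *Micu2* and *Letm1* were lower, at 48.9 and 44.6 TPM, and *Ppif* (6.38 TPM) and the uniporter pore *Mcu* (1.92 TPM) were lowest. Over cells the ranges of *Slc25a4* (2499 to 11292 TPM) and *Slc25a5* (1602 to 14415 TPM) overlapped, as did those of *Vdac1* (168 to 644 TPM), *Vdac2* (35.5 to 817 TPM) and *Vdac3* (13.9 to 340 TPM). Both carriers lay above all 3 porins in every cell, since the lowest carrier value exceeded the highest porin value. Only uniquely aligned reads had been counted, and 41.0% of the 75-base windows of the *Vdac3* transcript and 27.9% of those of *Slc25a5* recur in transcripts of other genes, against 3.9% for *Vdac2*, 1.9% for *Ppif* and 0% for the other 5 genes. The levels of *Vdac3* and *Slc25a5* against other genes are uncertain for that reason.

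**Figure D1:**
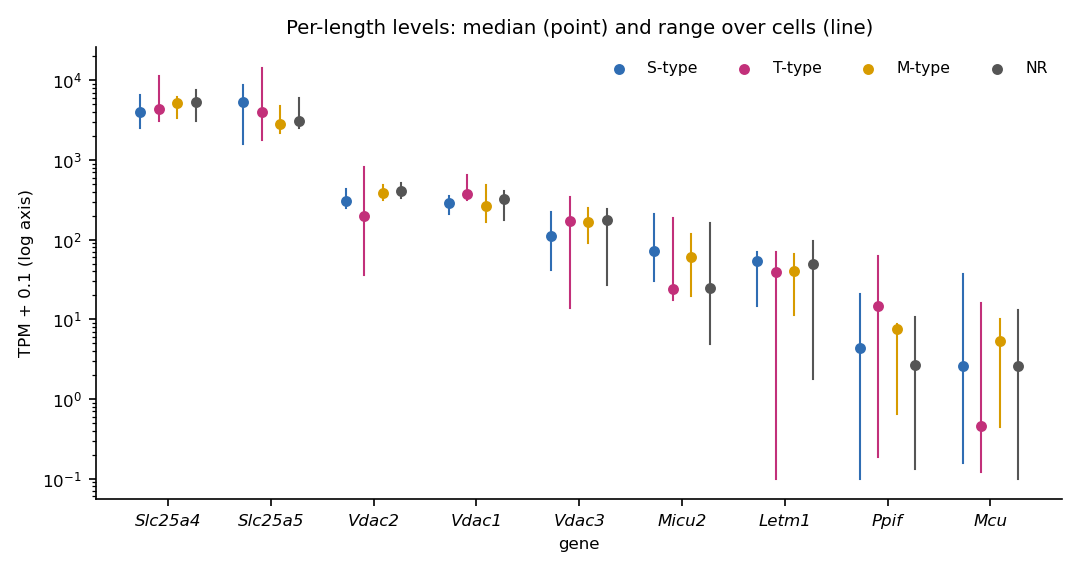
Level of each of the 9 genes per length of exon (vertical axis, TPM plus 0.1, logarithmic), with genes in order of their median over 22 cells. Points are the median and lines the range over the cells of a type; *Slc25a4* and *Slc25a5* sit above the porins in all 4 types, and *Mcu* is lowest overall with a median of 1.92 TPM.

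A read of *Vdac1*, *Vdac2*, *Vdac3*, *Micu2*, *Slc25a4* and *Slc25a5* was present in all 22 cells, whereas *Mcu*, *Letm1* and *Ppif* were each read in 21. Of the genes tested, 28.9% were read in every cell. The spread over cells was widest for the least read genes, *Ppif* and *Mcu*, with a coefficient of variation of 293% for *Ppif*, and it was narrowest for *Vdac2* (49.0%) and *Letm1* (52.9%).

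Among the porins, *Vdac1* was higher in T-type cells than in the others. This gene (chromosome 11, 52360860 to 52389397, plus strand, GRCm38) encodes the main calcium-passing porin. The lowest, median and highest normalized counts of *Vdac1* were 1948, 2469 and 3251 in S-type and 2988, 4083 and 26141 in T-type. The M-type cells had 1780, 3318, 1817, 1942 and 3689, and the NR cells had 2584, 2552, 3289, 1655 and 2980. T-type cells 1, 2 and 3, at 11149, 26141 and 4511, lay above all 16 cells of the other types, the remaining 3 T-type cells (3398, 3656 and 2988) lay within the range of those cells, and S-type, M-type and NR overlapped one another. A T-type cell exceeded an S-type cell in 35 of the 36 pairs that can be formed, both on normalized counts and on CPM. The exception was T-type cell 6, against S-type cell 1 on normalized counts and against S-type cell 3 on CPM. A T-type cell exceeded an NR cell in 29 of 30 pairs on normalized counts and in 26 of 30 on CPM, and an M-type cell in 26 of 30 on both. On CPM T-type cells 1 and 2 (509 and 574) lay above all cells of the other types, but T-type cell 3 (282) did not, since M-type cell 5 had 386.

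The mean level of *Vdac1* was 8640 in T-type, 2542 in S-type, 2509 in M-type and 2612 in NR. The log2 ratio was 1.77 for T-type versus S-type (95% counting interval 1.74 to 1.79), and versus NR it was 1.73 (1.70 to 1.76). Such intervals cover counting error only, because amplified reads are not separate molecules, and they say nothing of the spread over cells. Without T-type cells 1 and 2 the T-type level was 3638, and the ratios were 0.52 versus S-type and 0.48 versus NR. On mean CPM, in which the median of all genes tested shifts from -0.07 to -0.45 in this comparison, the ratio was 0.77, or 1.21 relative to that median, and versus NR, where the shift is from -0.05 to -0.45, it was 0.74, or 1.19 relative to the median. S-type and M-type differed little from NR, with ratios of -0.04 and -0.06. The order of the levels was T-type, NR, S-type and M-type, and the last 3 did not differ beyond their spread.

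*Vdac2*, the porin that also binds the apoptosis effector BAK, followed another pattern. The normalized counts in T-type were 6486, 2626, 2776, 6359, 16623 and 3260, so that T-type cell 5 was above and T-type cells 2, 3 and 6 were below all 16 cells of the other types. The other types had 3654 to 8705 in S-type (median 4469), 4291 to 9005 in M-type (median 6691) and 4787 to 10103 in NR (median 6873). The mean levels of 6355 in T-type, 5381 in S-type, 7042 in NR and 6471 in M-type thus came from overlapping cells, and no type stood apart. The ratio of T-type versus S-type was 0.24 and turned to -0.32 without T-type cell 5.

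*Vdac3*, the least studied porin, had normalized counts of 1014 to 3582 in S-type (median 1929) and 583.6 to 7871 in T-type (median 3560). It ran from 2045 to 5479 in M-type (median 2596) and from 714.7 to 4212 in NR (median 2858). All 4 types overlapped, although T-type cells 1 and 5 exceeded every cell of the other types. On CPM T-type cell 5 (630) still did, whereas T-type cell 1 (338) was below M-type cell 1 (424). The T-type level of 4024 against 2078 in S-type gave a log2 ratio of 0.95, which was 0.91 without T-type cells 1 and 2 and ranged from 0.65 to 1.18 when single cells were left out.

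Within a cell the 3 porins share depth and amplification, so the share of each in the summed porin reads needs no size factor. *Vdac1* held 44.5%, 87.3%, 57.3%, 27.2%, 13.0% and 28.1% of the porin reads in T-type cells 1 to 6. In the 16 cells of the other types it held between 12.1% and 29.7%, so T-type cells 1, 2 and 3 lay above all of them and T-type cells 4, 5 and 6 did not. Of these high cells, T-type cell 3 had the smallest library of all (2937786 reads), with 1443 porin reads. T-type cell 2 had the fewest genes with a read (6319). The *Vdac2* share was low in T-type, with 4 T-type cells below every cell of the other types, whose lowest share was 38.9%. Pooled over cells, the *Vdac1* share was 29.8% in T-type (exact binomial 95% interval 29.5 to 30.1), 25.8% in S-type (25.5 to 26.1), 21.0% in M-type (20.7 to 21.2) and 20.9% in NR (20.7 to 21.2). T-type cell 5, with the most porin reads, weighed on the pooled T-type share, which was 44.2% without it and 24.3% without T-type cell 2, the lowest value when a single cell was left out. The mean of the shares over T-type cells was 42.9%.

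**Figure D2:**
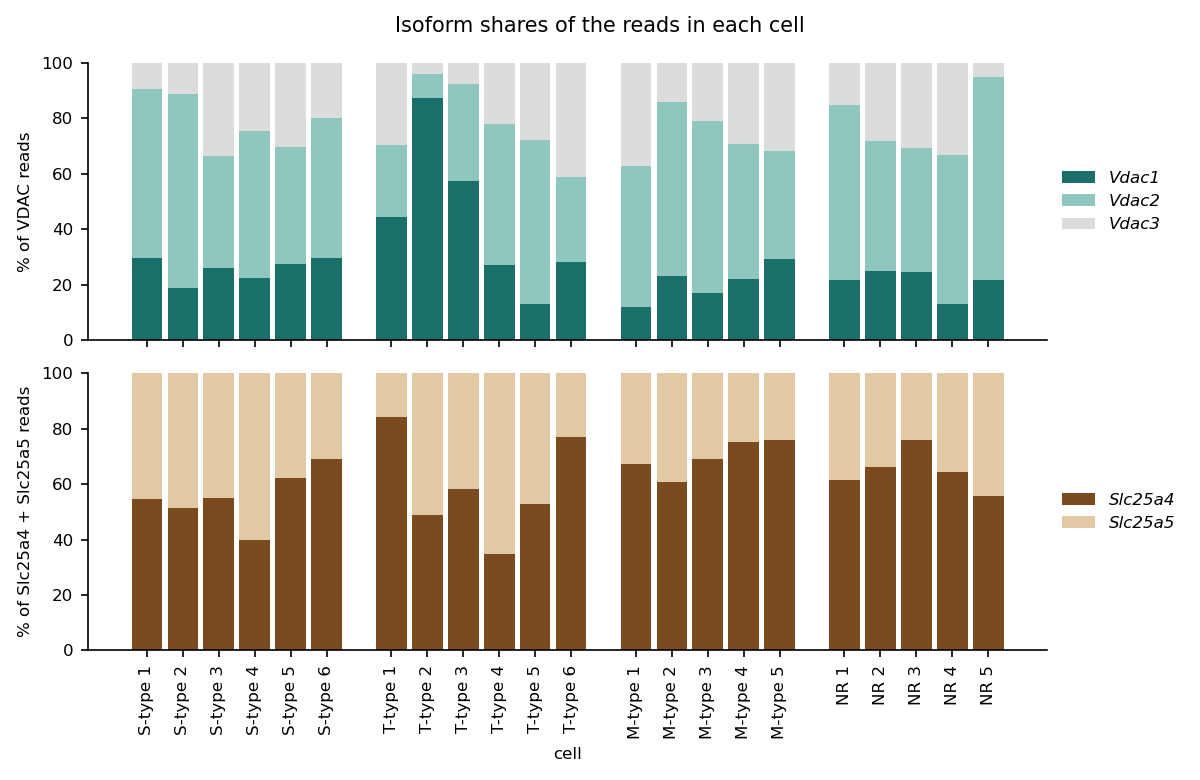
Percent of the reads of a gene family held by each gene, in each of the 22 cells (horizontal axis, grouped by type). In the upper panel *Vdac1* holds 44.5%, 87.3% and 57.3% of the porin reads in T-type cells 1, 2 and 3 and at most 29.7% in the cells of the other types; in the lower panel the *Slc25a4* share runs from 34.9% to 84.3%.

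The uniporter genes varied more from cell to cell than between types. *Mcu* (chromosome 10, 59446984 to 59616692, minus strand), the pore, had few reads, with 3531 over all cells. The normalized counts in S-type were 1.775, 1085, 24.97, 167.3, 79.22 and 1.484, and in T-type they were 15.48, 10.88, 10.91, 425, 0.6481 and 77.5. The M-type cells had 13.14, 9.803, 202.1, 104.3 and 159.4, and the NR cells 52.21, 66.36, 29.48, 324.2 and 0. A few cells of each type carried most of its *Mcu*, and the types overlapped throughout.

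The mean level of *Mcu* was 90.07 in T-type, 226.6 in S-type, 94.44 in NR and 97.74 in M-type. The resulting log2 ratios were 1.26 for S-type versus NR and -1.33 for T-type versus S-type. Both rested on S-type cell 2, without which they were -0.78 and 0.71, so the direction turned in each. The ratios versus NR were 0.05 in M-type and -0.07 in T-type, but single cells moved these too. Without NR cell 4 they were 1.40 and 1.28, without T-type cell 4 the T-type ratio was -2.03, and with medians over cells in place of means they were 1.0 and -1.98.

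*Micu2* (chromosome 14, 57916261 to 57999262, minus strand), a gatekeeper that sets the calcium threshold of the pore, was read in every cell. Its normalized counts ran from 279.6 to 2741 in S-type (median 901.5) and from 220.7 to 2431 in T-type (median 615.6). The M-type cells had 1465, 251.4, 654.9, 536.9 and 429, and the NR cells 44.92, 571.7, 234.4, 157.3 and 2502. The ranges of all types overlapped, and the highest cell of each type had 1465 or more. Levels of 829.4 in T-type, 1078 in S-type, 702.1 in NR and 667.4 in M-type gave ratios between -0.38 (T-type versus S-type) and 0.69 (S-type versus M-type), none of which reached 2-fold. The ratios versus NR rested on single high cells on both sides. Without NR cell 5 *Micu2* was past 2-fold higher than NR in all 3 responding types. The ratios were then 2.10 in S-type (0.62 with all cells), 1.72 in T-type (0.24) and 1.40 in M-type (-0.07). Leaving out the highest cell of the responding type instead gave ratios of 0.09 (S-type cell 2), -0.46 (T-type cell 5) and -0.58 (M-type cell 1). With medians over cells they were 1.94 in S-type and 1.39 in T-type, and M-type was also past 2-fold.

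Of the summed *Micu2* and *Mcu* reads, *Micu2* held 93.1% in T-type (92.4 to 93.8), 84.3% in S-type (exact binomial 95% interval 83.5 to 85.1), 84.8% in NR (83.7 to 85.7) and 85.5% in M-type (84.7 to 86.3). The cells ranged more widely than the types, from 32.7% in NR cell 4 to all 2699 reads in NR cell 5, and the T-type share was 77.1% without T-type cell 5, in which *Micu2* had 3752 of 3753 reads.

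The other subunits and regulators of the uniporter, 5 genes, did not pass 2-fold in T-type versus S-type. *Smdt1*, which encodes the EMRE subunit that the pore needs in animals, was the evenest of the 5, with mean levels of 1941 in T-type, 1458 in S-type, 1485 in NR and 1747 in M-type. *Mcub*, the uniporter paralogue that dampens the pore, had a level of 784.2 in NR, with cells from 0 to 2910, and of 148.8 in S-type, with cells from 0 to 755.5. Its ratio for S-type versus NR was -2.40 and became -0.76 without NR cell 4. For M-type versus NR the *Mcub* ratio was -4.05, and -2.42 without that cell, and for T-type versus NR it was -1.76.

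*Letm1* (chromosome 5, 33739673 to 33782817, minus strand) encodes an inner membrane protein of ion and proton exchange. The normalized counts were 598.3 to 2005 in S-type (median 1914) and 0 to 2482 in T-type (median 1617). They were 437.9, 1230, 1739, 1118 and 1891 in M-type and 1325, 2132, 2838, 58.61 and 2364 in NR. The low cells were T-type cell 2, which had no read, T-type cell 1 (358.9) and NR cell 4 (58.61), and all types overlapped. In T-type cell 2, a count of 0 allows up to 3 reads among its 12564138. The levels of 1743 in NR, 1613 in S-type, 1283 in M-type and 1334 in T-type lay within 2-fold of one another, and the T-type versus S-type ratio of -0.27 became 0.24 without T-type cells 1 and 2.

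The adenine nucleotide carriers were the most abundant members, and their T-type levels were carried by T-type cells 1 and 2 for *Slc25a4* and by T-type cell 2 for *Slc25a5*. *Slc25a4* (chromosome 8, 46206797 to 46211284, minus strand) had normalized counts of 175665, 351651, 31200, 41601, 37467 and 35921 in T-type. The S-type cells ran from 19481 to 64832 (median 28809), the M-type cells from 23046 to 50346 (median 42037) and the NR cells from 22202 to 63133 (median 49533). T-type cells 1 and 2 lay above all other cells, on CPM too, and the other 4 T-type cells lay within the range of S-type, M-type and NR alike. The log2 ratio was 1.65 for T-type versus S-type and 1.34 versus NR. Without T-type cells 1 and 2 it was 0.03 and -0.27, which turned the direction versus NR.

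*Slc25a5* (chromosome X, 36795651 to 36798807, plus strand) had normalized counts of 32623, 367611, 22353, 77711, 33373 and 10678 in T-type. The S-type cells ran from 8735 to 61034 (median 28160), the M-type cells had 21609, 32607, 10327, 13245 and 13348, and the NR cells 13927, 12382, 15731, 34756 and 49335. T-type cells 2 and 4 exceeded every cell of the other types. The mean levels were 90725 in T-type, 30929 in S-type, 25226 in NR and 18227 in M-type, which gave log2 ratios for T-type of 1.55 versus S-type, 1.85 versus NR and 2.32 versus M-type. Leaving out T-type cell 2 alone brought them to 0.19, 0.49 and 0.96.

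As a share of the reads of both carriers, *Slc25a4* held 60.3% in T-type, 54.1% in S-type, 64.3% in NR and 69.6% in M-type when cells were pooled. The cells ran from 34.9% to 84.3% in T-type, from 39.9% to 69.0% in S-type, from 55.8% to 75.9% in NR and from 60.7% to 75.9% in M-type. The balance between the carriers overlapped between all types, and the widest range was in T-type.

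The carriers had the highest correlation over cells of any pair of members. The Spearman correlation of the normalized counts of *Slc25a4* and *Slc25a5* over the 22 cells was 0.70, and it was 0.73 with each gene centred within its type, 0.50 on CPM and 0.64 without T-type cells 1 and 2. Among the 36 pairs of members 18 correlations were above 0, the median was 0.00, and no other pair reached 0.5 on normalized counts. The lowest was -0.44, between *Vdac1* and *Mcu*. With each gene centred within its type a second pair, *Vdac1* and *Slc25a4*, reached 0.63 (0.33 uncentred, and 0.10 uncentred without T-type cells 1 and 2), and *Letm1* and *Slc25a4* had -0.68. The 3 porins did not follow one another, with correlations of -0.16 for *Vdac1* and *Vdac2*, -0.06 for *Vdac1* and *Vdac3* and 0.12 for *Vdac2* and *Vdac3*. These values describe 22 cells whose genes share a library, its depth and its size factor.

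**Figure D3:**
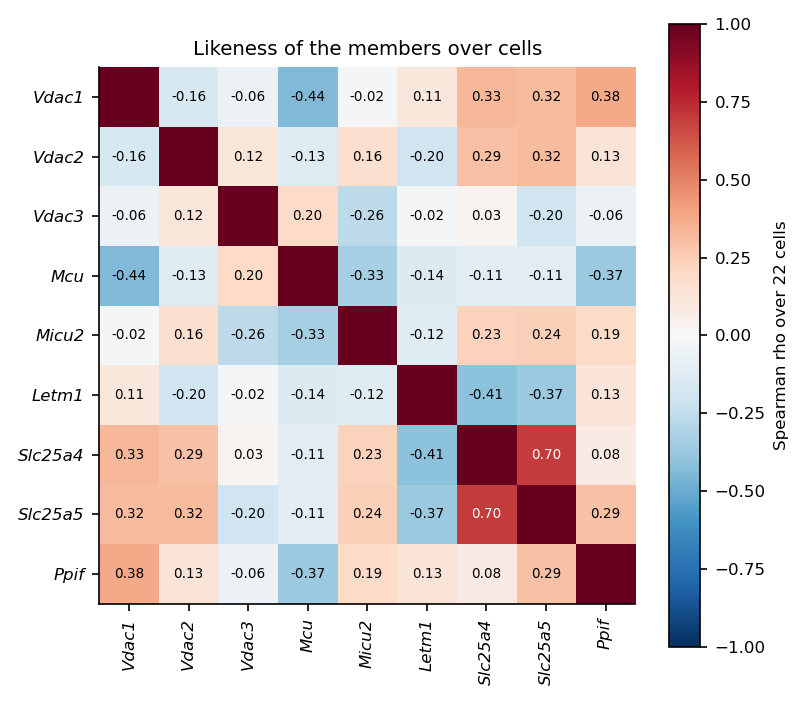
Spearman correlation of normalized counts over the 22 cells for each pair of the 9 genes, in color from -1 to 1 and as a number in each square. *Slc25a4* with *Slc25a5* (0.70) is the one pair at or above 0.5, and the porins are close to 0 with one another.

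The start regions of the carriers are shown because these are the members with the highest correlation over cells. The RefSeq windows around the start sites (GRCm38.p6) were at hand for 7 of the 9 genes, not for *Vdac2* and *Vdac3*. Each line gives 90 bases, 5′ to 3′ on the strand of the gene, with the motif ATATAAG in capitals, from chr8:46211039-46211128 (minus strand) for *Slc25a4* and chrX:36795552-36795641 (plus strand) for *Slc25a5*.
Slc25a4: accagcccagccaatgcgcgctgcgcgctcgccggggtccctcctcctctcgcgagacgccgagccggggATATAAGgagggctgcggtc
Slc25a5: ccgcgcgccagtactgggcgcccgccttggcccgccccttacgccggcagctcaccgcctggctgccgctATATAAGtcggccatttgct
The motif, a TATA-like run, begins 28 and 29 bases before the nearest downstream transcript start annotated in GENCODE vM21. For *Slc25a4* that start is not the first of the gene, since the bases shown lie inside the annotated gene, which begins at 46211284. For *Slc25a5* they lie before the gene start at 36795651. The motif was found in the windows of these 2 genes and of none of the other 5. It was picked after the sequences had been seen, and 2.52% of 32851 windows of all genes hold it on either strand. The CCAAT box was in 4 of the 7 windows (*Letm1*, *Mcu*, *Ppif* and *Slc25a4*) against 37.41% of all windows, and the GC box GGGCGG was in 6 of 7 against 35.66%. A match is a description of letters and not of a bound site.

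*Ppif* (chromosome 14, 25694154 to 25700468, plus strand), which encodes the matrix protein that sensitises the permeability transition, had the largest ratios between types. The normalized counts in T-type were 2.815, 4878, 21.82, 361.2, 537.9 and 183.8, and in S-type they were 467, 0, 96.24, 99.86, 31.38 and 5.937. The M-type cells had 177.7, 172.3, 106, 7.782 and 108.9, and the NR cells 97.74, 39.14, 17.26, 0.5981 and 265.1. T-type cells 2 and 5 lay above all other cells, whereas T-type cell 1 was among the lowest of the 22, and the types overlapped.

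The mean level of *Ppif* was 997.6 in T-type, 116.7 in S-type, 114.5 in M-type and 83.97 in NR. The log2 ratio was 3.10 for T-type versus S-type (2.98 to 3.21) and 3.57 versus NR (3.43 to 3.71). Without T-type cell 2 these were 0.92 and 1.40, and without T-type cells 1 and 2 they were 1.24 and 1.72, the largest of the 9 genes in that setting. Exons of *Ppif* overlap those of the antisense gene *Ppifos* over 921 bases, 18.3% of its exon length, and since the use of strand in counting is not stated, reads there cannot be assigned with certainty.

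**Figure D4:**
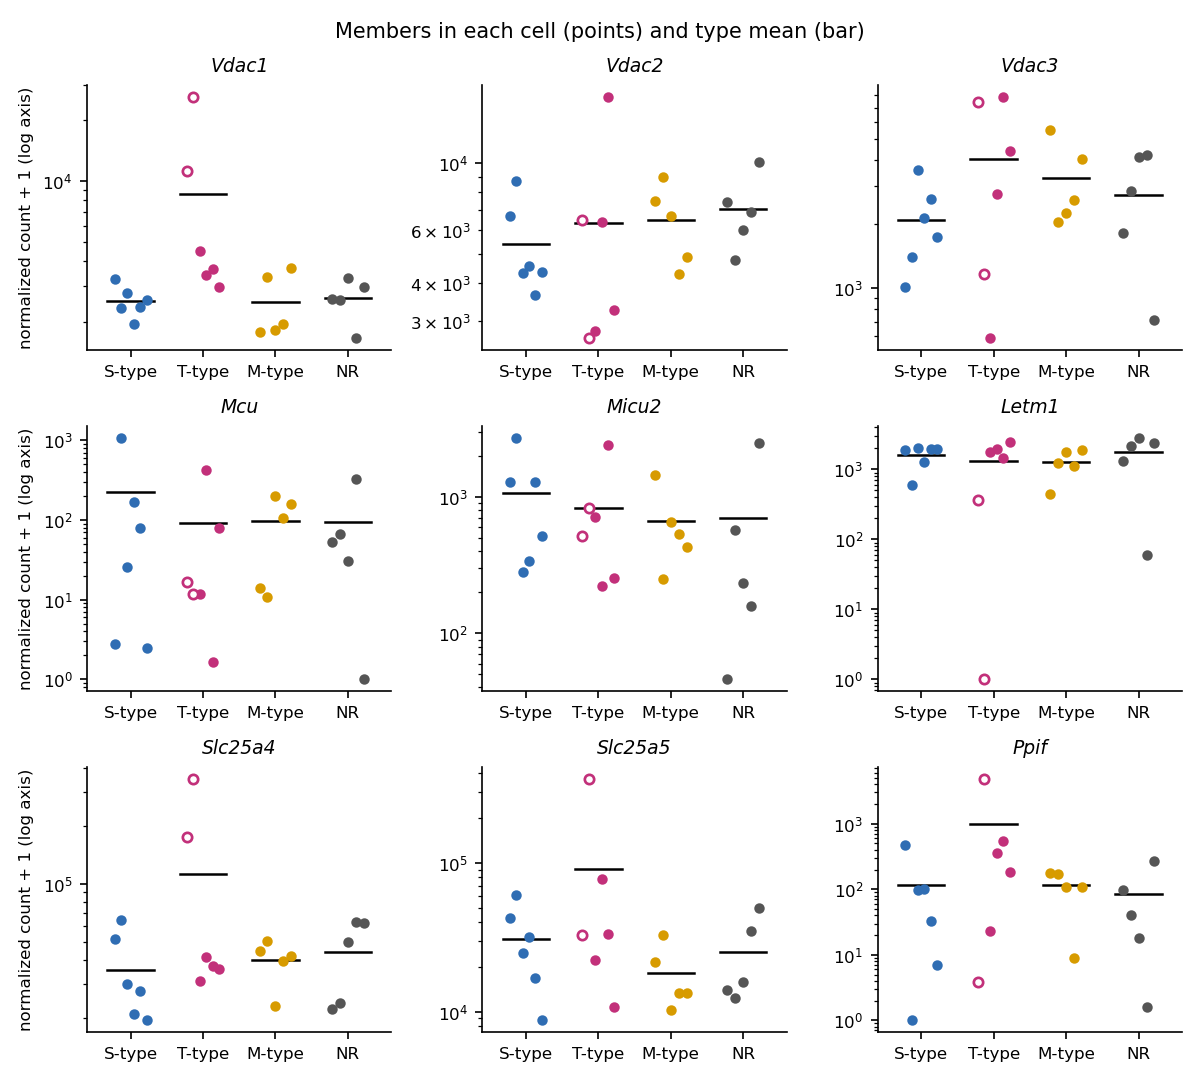
Normalized count plus 1 (vertical axis, logarithmic, its range set for each gene) of the 9 genes in each cell, by type; bars are the mean over the cells of a type and open circles are T-type cells 1 and 2. For *Vdac1*, T-type cells 1, 2 and 3 lie above all cells of the other types (at most 3689); for *Slc25a4* the T-type mean is carried by the open circles.

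Taking the 9 genes as a list, T-type versus S-type had 4 members at least 2-fold higher (*Vdac1*, *Slc25a4*, *Slc25a5* and *Ppif*) and 1 at least 2-fold lower (*Mcu*). Of all genes tested, 26.0% were at least 2-fold higher and 32.2% at least 2-fold lower in this comparison. The median log2 ratio of the members was 0.95 against -0.07 over the genes tested, and it was 0.24 against -0.18 without T-type cells 1 and 2. No member had all T-type cells on 1 side of all S-type cells, a state that 0.126% of genes reached upwards and 0.645% downwards.

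For T-type versus NR the same 4 genes were at least 2-fold higher and none was 2-fold lower, where 28.6% and 32.4% of the genes tested were. The members' median was 0.55 against -0.05, and 0.44 against -0.19 without T-type cells 1 and 2. For T-type versus M-type the 4 genes were again higher, at 1.78 for *Vdac1*, 1.49 for *Slc25a4*, 2.32 for *Slc25a5* and 3.12 for *Ppif* (0.54, -0.13, 0.98 and 1.27 without T-type cells 1 and 2), where 30.4% of genes were higher and 27.3% lower. The comparisons of T-type share the T-type cells, and those versus NR share the NR cells, so their counts are not independent of one another.

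In S-type versus NR 1 member was 2-fold higher, *Mcu*, and none was lower, against 25.1% and 22.4% of the genes tested, and the medians were -0.04 and 0.03. In M-type versus NR no member reached 2-fold in either direction, against 19.8% higher and 28.1% lower, with medians of -0.07 and -0.20. In S-type versus M-type 1 member was higher, again *Mcu* at 1.21, against 28.2% higher and 16.9% lower, with medians of 0.03 and 0.21. In none of the 54 ratios of a member did the cells of the compared types lie apart. Over all genes tested that happened for 0.189% upwards and 0.802% downwards in T-type versus NR, 0.204% each way in S-type versus NR, 0.275% and 0.322% in M-type versus NR, 0.0786% and 0.66% in T-type versus M-type, and 0.275% and 0.189% in S-type versus M-type.

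**Figure D5:**
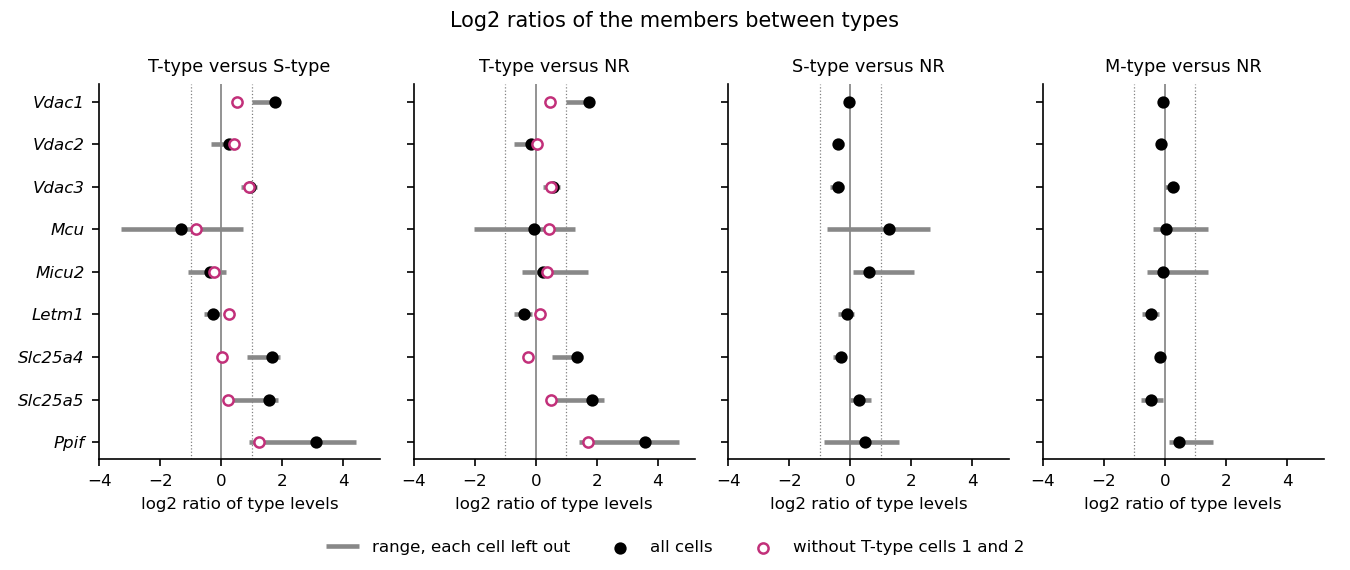
Log2 ratio of the type levels of the 9 genes in 4 comparisons (horizontal axis), with filled points for all cells, grey lines for the range when each cell was left out in turn, and open points without T-type cells 1 and 2. Dotted lines mark 2-fold; the open points of *Slc25a4* lie at 0.03 versus S-type and -0.27 versus NR, and the grey line of *Mcu* crosses 0 in T-type versus S-type and S-type versus NR.

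The wider route was followed with 7 lists of 61 genes, of which 59 passed the filter. They comprised the other uniporter subunits, other exchangers of the inner membrane, calcium-regulated carriers, partners of VDAC on the outer membrane, proteins of the contacts with the endoplasmic reticulum, proteases and scaffolds of uniporter assembly, and a reference for mitochondrial content. In T-type versus S-type 8 of the 59 genes were at least 2-fold higher and 10 lower, where 26.0% and 32.2% of the genes tested were. In T-type versus NR 10 were higher and 16 lower, against 28.6% and 32.4% of the genes tested. In S-type versus NR the counts were 8 and 15, against 25.1% and 22.4%, and in M-type versus NR they were 6 and 11, against 19.8% and 28.1%. The median over the listed genes' ratios was 0.24 in T-type versus S-type and -0.39 in M-type versus NR, against -0.07 and -0.20 for the genes tested.

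The 17 genes of the reference for mitochondrial content had a median ratio of 0.28 for T-type versus S-type and also versus NR, and these medians were 0.04 and -0.30 without T-type cells 1 and 2. On mean CPM they were -0.18 and 0.12, where the median of all genes tested was -0.45 in both, so the direction versus S-type turns with the scaling and the value relative to all genes does not. *Tomm70a*, an import receptor of the outer membrane, had a T-type level of 9380 against 2294 in NR and a ratio of 2.03, which was 0.65 without that pair. The 8 partners of VDAC had 1 gene higher and none lower in T-type versus S-type. Their median there was 0.42, or -0.01 on mean CPM, where that of all genes tested was -0.45. In T-type versus NR 2 were higher and 1 lower, with a median of -0.12. Of the 4 other exchangers of the inner membrane 1 was higher and 1 lower versus S-type, and none was higher and 2 lower versus NR. Of the 8 calcium-regulated carriers 6 passed the filter, with 1 higher and 2 lower versus S-type and none higher and 1 lower versus NR. Of the 7 proteases and scaffolds 1 was higher and 1 lower versus S-type, and 1 was higher and 2 lower versus NR. Of all genes tested, 26.0% were higher and 32.2% lower in T-type versus S-type, and 28.6% and 32.4% versus NR. Nothing particular to these lists is read from such small counts.

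Among the 12 contact proteins 2 were at least 2-fold higher and 5 lower in T-type versus S-type (26.0% and 32.2% of all genes tested), and 3 were higher and 6 lower in T-type versus NR (28.6% and 32.4%). Nothing particular to these proteins is read from counts of this size. *Mfn2*, a mitofusin that tethers the membranes, was the one listed gene past 2-fold whose cells lay apart in these comparisons. The 6 T-type cells had 0 to 589.1 and the 5 NR cells 1176 to 3578. Of all genes tested, 0.802% lay apart downwards in T-type versus NR and 0.645% in T-type versus S-type. A single such gene among the 59 is not read as a result about the lists. The levels of *Mfn2* were 219.9 in T-type, 1765 in NR and 1461 in S-type. Its ratios were -3.0 versus NR and -2.73 versus S-type, or -2.51 and -2.23 without T-type cells 1 and 2. *Rhot2*, which encodes the calcium-binding adaptor Miro2 of mitochondrial transport, had a ratio of 3.45 in T-type versus S-type. A single cell carried it, T-type cell 3, since the ratio was 0.40 without that cell and 4.03 without T-type cells 1 and 2. *Itpr3*, an inositol trisphosphate receptor, had 2 reads in NR, 28 in S-type and 383 in M-type, with ratios of 3.93 (1.94 to 7.04) and 7.74 (5.88 to 10.79) versus NR. Without S-type cell 5 the S-type ratio of *Itpr3* was 1.06, and the M-type ratio stayed at or above 6.93. Both ratios rest on the 2 reads in NR. The cells ran from 0 to 18.83 in S-type, 0 to 135.8 in M-type and 0 to 0.5981 in NR, so the types overlapped.

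*Slc25a25*, which encodes a calcium-binding ATP-Mg and phosphate carrier of the inner membrane, was lower in T-type than in S-type. Its levels were 153.5 in T-type, 1177 in S-type, 262.1 in NR and 1133 in M-type. The T-type cells ran from 0 to 654.5 and the S-type cells from 223.7 to 2608, so that the ranges overlapped, and the ratio was -2.94, or -2.42 without T-type cells 1 and 2. Versus NR the ratio was 2.17 in S-type and 2.11 in M-type, where NR cells ran from 68.63 to 558.8, and it stayed at or above 1.77 and 1.43 when any single cell was left out.

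*Yme1l1*, a protease that trims the EMRE subunit, had T-type ratios of 3.94 versus S-type and 4.65 versus NR, and without T-type cell 2 these fell to 0.08 and 0.79. *Letm2*, the paralogue of *Letm1*, had a level of 1069 in NR from cells of 0 to 5054, against 4.908 in T-type, 31.0 in S-type and 12.69 in M-type. The high NR level came from NR cell 5, and the S-type versus NR ratio moved from -5.11 to -1.24 without that cell.

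The genes whose normalized counts were most like those of a member were sought among 6237 genes read in at least 20 cells, with the Spearman correlation over 22 cells as the measure. *Vdac1* was followed most closely by *Cotl1* (0.73) and *Cox7b* (0.68), *Vdac2* by *BC004004* (0.84) and *Commd5* (0.81), and *Vdac3* by *Sbds* (0.76) and *Eif4a3* (0.73). *Mcu* was followed by *Ints12* (0.78) and *Taf11* (0.77), *Micu2* by *Tmed5* and *Tsen34* (0.74 each), and *Letm1* by *Dcun1d3* (0.73) and *Ilf2* (0.72). *Slc25a4* was followed by *H3f3a* (0.84) and *Csnk1a1* (0.81), *Slc25a5* by *Cox7c* (0.81) and *Atp5j* (0.79), and *Ppif* by *Chchd3* (0.70) and *Ift43* (0.67). *Cox7b*, *Cox7c* and *Atp5j* encode subunits of oxidative phosphorylation and *Chchd3* a protein of cristae, while the others have no role in the calcium route that is given here. The highest of 6237 values is large by its selection, so these are names and not a result about the members.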

How the data were processed

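RNA of 22 single astrocytes was amplified, sequenced and counted by the authors, who aligned trimmed paired reads to GRCm38 with STAR and counted uniquely aligned exonic reads per gene with VERSE. The processing notes of the submitters name STAR, HTSeq, GRCm38 and mm10. Versions and the use of strand are not given in the sources used here. The authors deposited these counts unnormalized, a column for each cell, and without molecular identifiers they count amplified reads. Cells had 2937786 to 22131076 reads.

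A size factor per cell, the median of its ratios to the geometric mean of the genes read in all cells, divided each count (NumPy 2.4.6, pandas 2.3.3, Python 3.11.15). Type levels were means over cells, with a level of exactly 0 replaced by that of 3 reads, and genes needed a read in 5 cells or more. Each type counted as 1 sample, so the Wald test of the study, for which cells were the replicates, was not run and no p-value was computed. Intervals were exact binomial (SciPy 1.17.1); for ratios they used an effective number of reads weighted by size factor, a method adopted after the first one was too narrow on simulated data. Exon lengths and positions came from GENCODE vM21 and start windows from RefSeq.

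The members and lists were chosen with earlier results of these data known. Named beside the members were listed genes past 2-fold with cells apart, the 2 largest ratios per direction at a mean level of at least 10 in the comparisons of T-type with S-type and of each type with NR, and the 2 genes most like each member at a mean level of at least 100; *Smdt1* was named after its values were seen, and 1 gene is not reported here. Alternatives were pooled and mean CPM, TMM factors (edgeR 4.0.16, R 4.3.3), cells thinned to 2937786 reads, the median over cells, a pseudocount of 1, other gene filters, and each cell left out in turn. Leaving out T-type cells 1 and 2 together was added after seeing the data. Figures were drawn with matplotlib 3.10.9.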

Additional observations from a re-analysis of the deposited data

Results flagged for a closer look

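Dixon's ratio was taken within each type for the 9 genes and 5 read shares, and 12 of 56 groups held a cell whose gap to the nearest other cell exceeded the 95% critical value. The critical value flags about 1 group in 20 when values are independent and normally distributed. The counts here are skewed and the shares reuse the same reads, so the 21.4% flagged cannot be judged against that rate. Of the flagged groups 7 were in T-type, 3 in NR, 2 in S-type and 0 in M-type.

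T-type cell 2 was far above the other T-type cells for *Vdac1* (26141 normalized counts, the others at most 11149), *Slc25a5* (367611, the others at most 77711) and *Ppif* (4878, the others at most 537.9). T-type cell 5 was the high cell for *Vdac2* (16623, the others at most 6486) and *Micu2* (2431, the others at most 837.7). For *Mcu* the high cells were S-type cell 2 (1085, the others at most 167.3), T-type cell 4 (425, the others at most 77.5) and NR cell 4 (324.2, the others at most 66.36). NR cell 5 was the high cell for *Micu2* (2502, the others at most 571.7), and S-type cell 1 for *Ppif* (467, the others at most 99.86).

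Among the shares, NR cell 4 had the lowest *Vdac1* share of porin reads in NR (13.0%, the others at least 21.6%), and T-type cell 4 had the lowest *Micu2* share of *Micu2* and *Mcu* reads in T-type (34.2%, the others at least 76.73%).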

How the results depend on the processing

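Of 15 member ratios past 2-fold, 15 stayed past it after thinning and with a pseudocount of 1, 13 with TMM factors, 7 with medians over cells, and 5 with pooled and 5 with mean CPM. Of the 13 that involve T-type, 3 stayed without T-type cells 1 and 2, all of them *Ppif*. Whatever single cell was left out, *Vdac1* in T-type versus S-type and versus M-type and *Ppif* in T-type versus NR stayed past 2-fold. Of the 39 member ratios under 2-fold, 8 newly passed it with medians over cells, 1 with pooled CPM and 1 with TMM factors. Leaving out some single cell brought 13 of them past it. The cause of the other changes was not tested. In single cells *Mcu*, *Ppif* and *Letm1* had as few as 0 reads, which limits those values. No paired analysis was possible because the labels do not tie a cell to an animal or a culture.

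The count of members at least 2-fold higher in T-type versus S-type, 4, became 1 with pooled CPM, mean CPM, medians or without T-type cells 1 and 2, and that of lower ones, 1, became 0 without that pair. In T-type versus NR 4 higher became 1 with both CPM settings and without the pair, and 0 lower became 1 with medians. In T-type versus M-type 4 higher became 2 with both CPM settings and 1 without the pair, and 0 lower became 1 with pooled CPM and with medians. In S-type versus NR and S-type versus M-type 1 higher became 0 with both CPM settings and with TMM factors, in S-type versus M-type 0 lower became 1 with medians, and in M-type versus NR 0 higher became 2 with medians. When single cells were left out, the higher counts ran from 2 to 5 in T-type versus S-type, 1 to 5 in T-type versus NR, 0 to 2 in S-type versus NR, 0 to 2 in M-type versus NR, 1 to 4 in T-type versus M-type and 0 to 1 in S-type versus M-type. The lower counts ran from 0 to 2 in T-type versus S-type, stayed 0 in S-type versus NR and M-type versus NR, and ran from 0 to 1 in the other 3 comparisons. Members with cells apart numbered 0 to 1 in T-type versus S-type and in T-type versus NR, and 0 in the other 4.

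Among ratios past 2-fold, the direction turned for *Slc25a4* in T-type versus NR (-0.33 with medians, -0.27 without T-type cells 1 and 2) and versus M-type (-0.09 and -0.13). It turned for *Mcu* in S-type versus M-type (-1.0 with medians), and without S-type cell 2 in T-type versus S-type (0.71), S-type versus NR (-0.78) and S-type versus M-type (-0.83). Over all single cells left out, the *Mcu* ratio ran from -3.3 to 0.71, from -0.78 to 2.61 and from -0.83 to 1.66 in these comparisons. Ratios under 2-fold also turned, among them *Ppif* in S-type versus NR (-0.85 without S-type cell 1), *Micu2* in T-type versus NR (-0.46 without T-type cell 5) and *Mcu* in T-type versus NR (1.28 without NR cell 4).

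Per kilobase of exon the *Vdac1* share of porin reads was 44.8% in T-type, 39.7% in S-type, 33.3% in NR and 33.5% in M-type, the *Slc25a4* share 51.6%, 45.2%, 55.7% and 61.6%, and the *Micu2* share 96.8%, 92.3%, 92.6% and 93.0%. The mean over cells was 42.9% for *Vdac1* in T-type, 55.4%, 59.4% and 64.7% for *Slc25a4* in S-type, T-type and NR, and 87.4%, 84.2% and 71.5% for *Micu2* in the same types. With single cells left out, the *Vdac1* share ran from 24.3% to 44.2% in T-type, 25.0% to 27.1% in S-type, 19.9% to 23.3% in NR and 18.1% to 23.3% in M-type. The *Slc25a4* share ran from 52.5% to 65.9%, 52.8% to 56.2%, 61.7% to 67.0% and 67.6% to 72.2%, and the *Micu2* share from 77.1% to 97.2%, 81.0% to 93.2%, 68.0% to 94.4% and 78.8% to 88.7%, in the same order. The correlation of *Slc25a4* and *Slc25a5* was 0.50 on CPM.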
